A study of Mus musculus with 6 samples.

Results

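Retained-intron transcripts are annotated RNAs of a gene that keep intron sequence which other transcripts of that gene splice out. The deposited table of 85882 mouse transcripts gives 19376 of them the type retained intron, and all 19376 were taken, with no choice by their values. They belong to 8285 of the 29559 genes in the table, and 7976 of those genes also have transcripts typed protein coding, against which they are set here. The libraries came from primary chondrocytes, the cells that build cartilage, cultured without being made to differentiate. Of these, 3 libraries carry floxed Nf2 alleles and Prx1-CRE (Nf2f/f;Prx1-CRE, cKO 1 to 3) and 3 carry the same floxed alleles without Cre (Nf2f/f, control 1 to 3). Nf2 encodes merlin, a membrane-linked tumour suppressor upstream of the Hippo kinases, and the Prx1 enhancer drives Cre in limb bud mesenchyme, so cells of other origin in a culture would keep the alleles intact. The age of the mice is not labelled, nor whether libraries of a group stem from different animals or cultures. The p-values here therefore reflect the spread among 6 samples, part of which may be technical.

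Intron retention is a form of alternative splicing in which the spliceosome leaves an intron in an otherwise processed RNA. Such RNAs often stay in the nucleus, where some are spliced later, and those that reach the cytoplasm commonly meet a stop codon in the intron and are degraded by nonsense-mediated decay. Short introns, and introns in genes for splicing factors themselves, are well known to be kept in this way, and the SR proteins and several hnRNPs limit their own levels through it. The comparison asks how these transcripts differ after Cre-driven recombination of Nf2, in a study whose title names the limb, the thumb, the primary cilium and Hedgehog signals.

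The chondrocyte label fitted the markers: the summed level of 10 chondrocyte markers was 2048 to 2556 FPKM in cKO and 4581 to 5682 FPKM in control, led by Col2a1, the main cartilage collagen. FPKM are fragments scaled to transcript length and library total. All 10 were above 0.5 FPKM in each of the 6 libraries, the lowest value being 5.30 FPKM, and for all 10 every cKO library was below every control library. In bulk RNA, fewer cells of a type and less RNA per cell cannot be told apart. Summed levels of 7 adipocyte markers were 67.8 to 103 FPKM in cKO and 56.3 to 62.1 FPKM in control, and those of 11 fibroblast and tendon markers 1024 to 1788 FPKM in cKO and 1649 to 1755 FPKM in control. Macrophage markers, 8 in all, summed to 3.88 to 5.70 FPKM in cKO and 4.28 to 6.92 FPKM in control. The 8 skeletal muscle markers, of which Myog and Pax7 were not listed, summed to 13.8 to 14.9 FPKM in cKO and 8.32 to 12.1 FPKM in control, and endothelial markers to under 0.82 FPKM. The part of these cell types in the results below was not tested. Nf2 itself summed to 17.5, 15.6 and 18.1 FPKM in cKO against 16.7, 16.6 and 14.1 FPKM in control, which overlap. A sum over whole transcripts also takes reads outside a deleted part and so checks nothing about the deletion, and "cKO" and "control" below mean the libraries so labelled. Xist, expressed in female cells, was at 51.4, 41.6 and 0.029 FPKM in cKO and 51.1, 0.525 and 53.9 FPKM in control, so 1 library of each group differed from the others of its group in sex-linked RNA.

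Which introns these transcripts keep was read from the GENCODE M21 annotation of mouse build mm10. Of the 19376 transcripts, 5896 (30.4%) hold at least 1 whole intron of a protein-coding transcript of their gene, and 13087 (67.5%) hold only a part of one, for instance where the transcript starts or ends inside it. The transcripts with a whole intron carried 59.8% of the retained-intron FPKM. They keep 8053 different introns, of which 7892 (98.0%) run from GT to AG, 94 from GC to AG and 11 from AT to AC. Their median length was 278 bases, against 1472 bases for the 116945 other introns of the same genes, and the quartiles of the retained introns were 120 and 722 bases. The other introns include those kept only in part, so they are not a set of spliced introns. A length that is a multiple of 3, which could leave the reading frame open, occurred in 33.1% of the 8053 introns kept whole. All 19376 retained-intron transcripts together were short, with a median of 3 exons and 870 bases, against 7 exons and 2158 bases for protein-coding transcripts. Those that hold a whole intron had a median of 4 exons and 1816 bases.

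The sequences below are introns kept in some of the retained-intron transcripts that differed between the groups in the test below. They are shown because a kept intron is sequence that the retained form has and the spliced form lacks. They were read 5′ to 3′ on the strand of the gene from GENCODE M21 transcripts, with the splice-site dinucleotides GT and AG in capitals. Short introns are printed whole, and of 2 long introns only the ends, with the neighbouring exon bases in lower case. Rad9a intron 7 of 10 lies at chr19:4197404-4197476 (minus strand, 73 bases) and Arhgef25 introns 7 and 8 of 15 at chr10:127185357-127185574 and chr10:127185173-127185286 (minus strand, 218 and 114 bases). Hspa8 introns 5 and 7 of 8 lie at chr9:40803530-40803739 and chr9:40804364-40804462 (plus strand, 210 and 99 bases), the first of which contains the small nucleolar RNA gene Snord14c. Shcbp1 intron 7 of 12 lies at chr8:4748826-4749291 (minus strand, 466 bases) and Dnajc2 intron 12 of 16 at chr5:21761726-21763445 (minus strand, 1720 bases). All lie between coding exons.
Rad9a intron 7: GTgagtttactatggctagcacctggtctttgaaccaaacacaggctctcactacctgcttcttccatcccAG
Arhgef25 intron 7: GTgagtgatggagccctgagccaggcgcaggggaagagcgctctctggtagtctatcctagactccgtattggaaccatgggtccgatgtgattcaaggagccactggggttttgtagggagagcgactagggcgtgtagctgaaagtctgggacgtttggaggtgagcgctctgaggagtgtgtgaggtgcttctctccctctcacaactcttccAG
Arhgef25 intron 8: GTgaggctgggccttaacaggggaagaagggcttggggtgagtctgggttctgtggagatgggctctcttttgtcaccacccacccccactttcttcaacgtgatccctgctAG
Hspa8 intron 5: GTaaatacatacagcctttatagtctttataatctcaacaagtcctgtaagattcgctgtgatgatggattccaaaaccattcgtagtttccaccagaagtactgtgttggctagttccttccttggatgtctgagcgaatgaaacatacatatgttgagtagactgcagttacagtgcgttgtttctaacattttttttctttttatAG
Hspa8 intron 7: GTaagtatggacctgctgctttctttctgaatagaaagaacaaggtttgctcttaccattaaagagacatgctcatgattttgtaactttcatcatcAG
Shcbp1 intron 7, 5′ end: aagGTaaaa
Shcbp1 intron 7, 3′ end: aatatgctgttgttttctAGttc
Dnajc2 intron 12, 5′ end: cagGTaaca
Dnajc2 intron 12, 3′ end: acctacctgtatctgtgtAGata

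Most retained-intron transcripts were rare in both groups. Their median level over all 6 libraries was 0.138 FPKM, 8408 were under 0.1 FPKM, 577 were listed at 0 in all 3 cKO libraries and 663 in all 3 control libraries. Only transcripts that averaged 0.5 FPKM or more across libraries were tested, which 4387 retained-intron transcripts of 2763 genes reached and 14989 did not. Of those tested, 233 reached 0.5 FPKM as a mean only in cKO and 427 only in control. Gas5, a noncoding host gene of small nucleolar RNAs, had the most, with 20 transcripts of this type, and 3594 genes had 1.

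At the top of the scale, 8 retained-intron transcripts exceeded a mean of 100 FPKM, and the 6 highest included transcripts of Eef1a1, Fth1 and Rpl7. Fth1, the ferritin heavy chain that stores iron, had 2 of the 6. Its ENSMUST00000237316 (chr19:9982704-9985092) was at 203, 248 and 222 FPKM in cKO against 357, 398 and 369 FPKM in control. Every cKO library was below every control library, and the transcript fell by 0.75 on the log2(FPKM + 0.5) scale (SE 0.088, limma, Benjamini-Hochberg adjusted p = 0.0410). The other, ENSMUST00000235129, was at 177, 188 and 226 FPKM in cKO and 259, 329 and 315 FPKM in control (log2 change -0.61, limma adjusted p = 0.124). Protein-coding Fth1 transcripts were lower as well, at 158 ± 13.6 FPKM in cKO and 277 ± 15.3 FPKM in control (SD, n = 3 each), and the share of the gene's FPKM in retained-intron transcripts was 72.0, 71.6 and 74.9% in cKO and 70.3, 71.4 and 71.5% in control. The Eef1a1 transcript ENSMUST00000144523, from the gene of a translation elongation factor, was at 788, 297 and 306 FPKM in cKO and 166, 496 and 211 FPKM in control, with overlapping groups and cKO 1 far above the other cKO libraries. Rpl7 ENSMUST00000125005, of a protein of the large ribosomal subunit, was at 166, 148 and 201 FPKM in cKO and 123, 106 and 146 FPKM in control, and every cKO library was above every control library (log2 change 0.45, limma adjusted p = 0.274). Eef1a1, Fth1 and ribosomal protein genes have many processed pseudogenes with near-identical sequence, so the assignment of their reads is uncertain.

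Retained-intron RNA made up a slightly smaller part of the cKO libraries. Retained-intron transcripts held 3.44, 3.40 and 3.18% of all FPKM in cKO 1 to 3, against 3.50, 3.60 and 3.52% in control 1 to 3. All 3 cKO libraries were below all 3 control libraries, with means of 3.34 ± 0.143% in cKO and 3.54 ± 0.051% in control (SD, n = 3 each) and a difference of -0.201 percentage points. The 2-sided exact permutation test gave p = 0.1, the smallest it can give with 3 libraries against 3. Leaving out cKO 3, the lowest library, the difference was -0.119 points, and over transcripts that hold a whole intron alone it was -0.0247 points (exact permutation p = 0.7, groups overlapping, chosen after seeing the data). Protein-coding transcripts held 82.9 to 83.5% of FPKM in cKO and 81.8 to 82.7% in control.

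Within genes the shift was larger. For the 3304 genes whose retained-intron and protein-coding sums both reached a mean of 0.5 FPKM, the median share of a gene's FPKM in retained-intron transcripts was 8.14, 8.30 and 6.95% in cKO, against 9.22, 9.01 and 8.98% in control. Again no cKO library reached the control range, at 7.80 ± 0.739% in cKO and 9.07 ± 0.128% in control (SD, n = 3 each, difference -1.27 points, exact permutation p = 0.1). The size of the difference varied with the processing. It was -0.432 points without a filter on low values, where the shares themselves were 3.53 ± 0.353% in cKO and 3.96 ± 0.077% in control (SD, n = 3 each). Over transcripts that hold a whole intron it was -0.760 points, without cKO 3 -0.878 points, with quantile normalization -0.775 points and with transcripts weighted by length as fragments -0.721 points. Malat1, an abundant nuclear noncoding RNA, was at 147, 198 and 108 FPKM in cKO and 79.7, 52.9 and 51.2 FPKM in control, while Neat1, another nuclear RNA, was at 13.7 to 16.5 FPKM in cKO and 15.7 to 17.3 FPKM in control. Their part in the share, and that of RNA quality, was not tested.

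**Figure D1:**
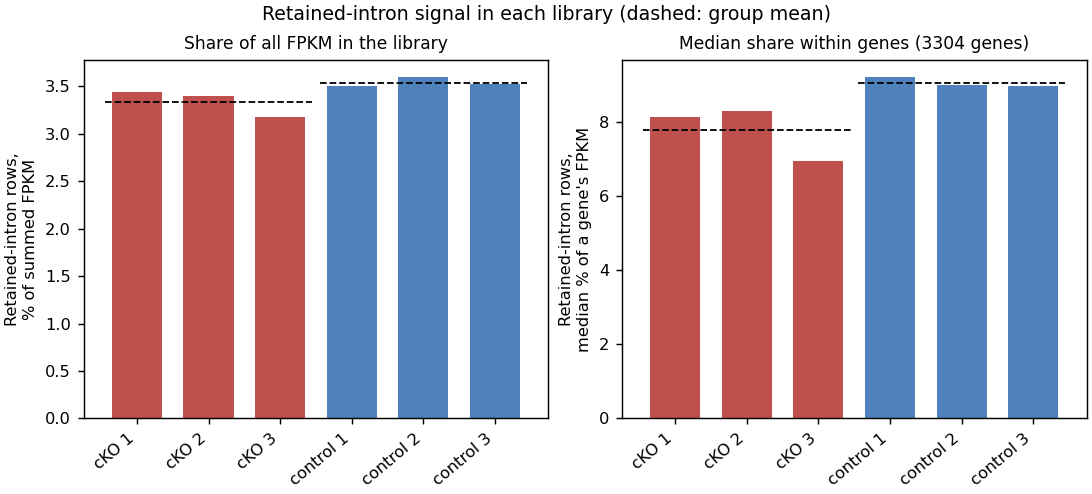
Share of FPKM in retained-intron transcripts in each library, as a percent of the whole library (left) and as the median over 3304 genes of the percent of a gene's FPKM (right), with dashed lines at the group means. The 3 cKO libraries lie between 6.95 and 8.30% in the right panel and the 3 control libraries between 8.98 and 9.22%, with cKO 3 the lowest in both panels.

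Taken one by one, few retained-intron transcripts changed. Of the 4387 tested, 14 passed limma at an adjusted p of 0.05 (0.319%), 4 higher (0.0912%) and 10 lower (0.228%) in cKO. Over all 27761 transcripts tested 0.609% passed, 0.187% higher and 0.421% lower, and of 18691 protein-coding ones 0.733%. Among the 5415 protein-coding transcripts of the same genes 25 passed (0.462%). At an unadjusted limma p under 0.05 there were 342 of the 4387 retained-intron transcripts, beside 4039 of all 27761 and 3145 of the 18691 protein-coding ones. The groups did not overlap for 691 retained-intron transcripts (15.8%), 192 higher (4.38%) and 499 lower (11.4%). The same held for 22.6% of all transcripts tested (13.3% higher, 9.36% lower) and for 25.2% of protein-coding ones (16.4% higher, 8.84% lower). The 14 belonged to 12 genes, all with separate groups, and 4 of them had a mean under 0.5 FPKM in 1 group, so that they entered the test through the other. In the authors' deposited table, 81 retained-intron transcripts were higher (0.418%) and 149 lower (0.769%) at q under 0.05, or 1.19% in all, beside 3.81% of all transcripts listed (2.2% higher, 1.61% lower).

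**Figure D2:**
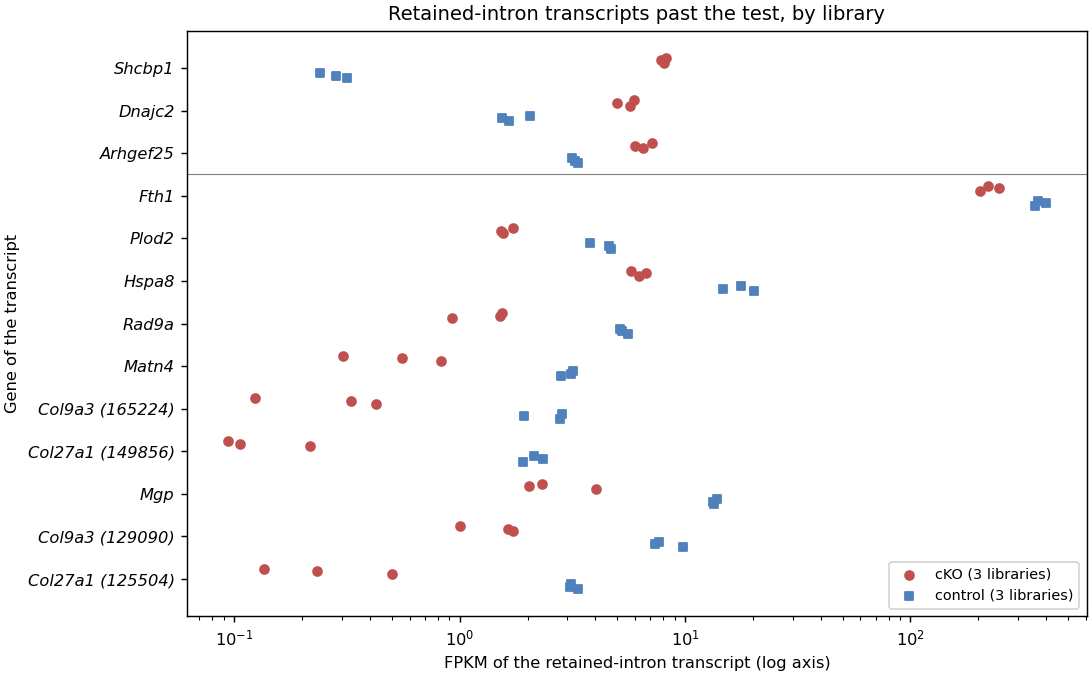
FPKM (log axis) in each of the 6 libraries for 13 of the 14 retained-intron transcripts past limma, with cKO as circles above control as squares for each transcript and the last 6 digits of the identifier where a gene has 2. The 3 transcripts above the line were higher in cKO and the 10 below it lower, and in none do the groups overlap.

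All 4 that rose hold a whole coding intron. The largest change was in Shcbp1, which encodes an SHC-binding protein of dividing cells. Its transcript ENSMUST00000208856 (chr8:4736230-4779551, 12 exons), which keeps intron 7, was at 8.05, 7.82 and 8.25 FPKM in cKO against 0.316, 0.282 and 0.241 FPKM in control. It was a main form of the gene in cKO and near the low end in control, with a log2 change of 3.45 (SE 0.131, limma adjusted p = 0.0019). The ratio of means in the authors' deposited table is 28.7, larger because the added 0.5 shrinks changes of low values. The single protein-coding transcript went the other way, at 11.7, 10.6 and 13.6 FPKM in cKO and 18.6, 18.4 and 20.3 FPKM in control. The other 3 retained-intron transcripts of Shcbp1 were under the filter. ENSMUST00000208856 itself averaged 0.280 FPKM in control, so it entered the test through cKO. Its call was kept with each of the 6 libraries left out in turn.

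Dnajc2, a chaperone at the ribosome, and Arhgef25, an exchange factor for small GTPases, rose less. Dnajc2 ENSMUST00000132962 (chr5:21757281-21785170), which keeps the 1720-base intron 12, was at 5.70, 5.003 and 5.93 FPKM in cKO and 1.65, 1.54 and 2.06 FPKM in control (log2 change 1.43, SE 0.146, limma adjusted p = 0.0260). Arhgef25 ENSMUST00000219649 (chr10:127182525-127190036), which keeps introns 7 and 8, was at 6.51, 6.01 and 7.12 FPKM in cKO and 3.33, 3.26 and 3.14 FPKM in control (log2 change 0.91, SE 0.110, limma adjusted p = 0.0412). Coding Dnajc2 transcripts summed to 12.2 ± 0.861 FPKM in cKO and 16.2 ± 0.738 FPKM in control, and coding Arhgef25 to 16.8 ± 1.09 FPKM in cKO and 17.4 ± 0.420 FPKM in control (SD, n = 3 each). Both calls were lost with any 1 library left out, at limma adjusted p of 0.0567 to 0.0944 for Dnajc2 and 0.0903 to 0.134 for Arhgef25.

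Of the 10 that fell, 6 came from cartilage genes whose coding transcripts were lower too. Col27a1, a fibrillar collagen of cartilage, had 3 retained-intron transcripts, of which ENSMUST00000125504 was at 0.499, 0.234 and 0.136 FPKM in cKO and 3.37, 3.10 and 3.11 FPKM in control (log2 change -2.25, SE 0.217, limma adjusted p = 0.0224). ENSMUST00000149856 fell by 2.04 (limma adjusted p = 0.0180), and the remaining one stood at -1.28 on that scale, which did not pass (limma adjusted p = 0.0555). Coding Col27a1 was at 6.22 ± 1.50 FPKM in cKO and 35.8 ± 4.60 FPKM in control (SD, n = 3 each). All 3 transcripts averaged under 0.5 FPKM in cKO and entered the test through control. All 3 stood lower beside a coding transcript that was lower too, with a log2 change of -2.45.

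The pattern was the same in Col9a3, a chain of collagen IX, in Mgp, an inhibitor of calcification, and in Matn4, a matrix adaptor protein. Col9a3 ENSMUST00000129090 was at 1.72, 1.63 and 1.01 FPKM in cKO and 9.78, 7.38 and 7.66 FPKM in control, a log2 change of -2.18 (limma adjusted p = 0.0208). Its ENSMUST00000165224 fell by 1.93 (limma adjusted p = 0.0440), beside a log2 change of -1.92 for coding Col9a3. That transcript averaged 0.292 FPKM in cKO and entered the test through control. Mgp ENSMUST00000203103 was at 4.02, 2.03 and 2.31 FPKM in cKO and 13.4, 13.2 and 13.8 FPKM in control (log2 change -2.14, limma adjusted p = 0.0310; coding Mgp -2.22). Matn4 ENSMUST00000154940 was at 0.830, 0.555 and 0.305 FPKM in cKO and 2.81, 3.12 and 3.19 FPKM in control (log2 change -1.76, limma adjusted p = 0.0468; coding Matn4 -1.42). Plod2, a lysyl hydroxylase for collagen cross-links, was lower as well (ENSMUST00000190075, log2 change -1.21, limma adjusted p = 0.0385; coding Plod2 -0.87) and is named here after its value was seen. The 7 transcripts of these 5 genes past limma hold only part of a coding intron, not a whole one. In all, 8 of the 10 lower transcripts had a coding sum that was lower as well.

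The 2 exceptions were Rad9a and Hspa8, where coding transcripts were higher. Rad9a, part of the clamp that signals DNA damage, had ENSMUST00000237467 (chr19:4195220-4201607), which keeps the 73-base intron 7, at 0.920, 1.51 and 1.54 FPKM in cKO and 5.58, 5.27 and 5.16 FPKM in control (log2 change -1.70, SE 0.183, limma adjusted p = 0.0311). Coding Rad9a was at 12.3 ± 1.66 FPKM in cKO and 6.78 ± 1.70 FPKM in control (SD, n = 3 each). Hspa8, the constitutive heat shock cognate chaperone, had ENSMUST00000149936 (chr9:40801276-40805199), which keeps 5 introns, at 6.27, 6.73 and 5.73 FPKM in cKO and 20.2, 14.7 and 17.7 FPKM in control (log2 change -1.41, SE 0.138, limma adjusted p = 0.0224). Coding Hspa8 was at 582 ± 23.5 FPKM in cKO and 452 ± 14.9 FPKM in control. In both genes the retained form was thus lower in every cKO library while the coding form was higher. Introns 5, 6 and 8 of Hspa8 hold the small nucleolar RNA genes Snord14c, Snord14d and Snord14e, whose own entries were listed at or near 0.

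The genes Ppp1ca, Rbpjl and Gm6334 lie on the opposite strand within the spans of the Rad9a, Matn4 and Shcbp1 transcripts. The libraries kept strand information by dUTP, but whether it was used in counting is not given in the sources used here, so their reads may not have been told apart. Each of the 10 calls of a fall, like those of Dnajc2 and Arhgef25, was lost in 5 or 6 of the 6 leave-outs.

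The change of retained against coding transcripts was tested directly as the ratio of their sums within each gene. Of 3304 genes, 3 passed limma at an adjusted p of 0.05 (0.0908%), 2 higher (0.0605%) and 1 lower (0.0303%), with 334 at an unadjusted p under 0.05. The ratio rose in Shcbp1 (log2 change 3.27, SE 0.201, limma adjusted p = 0.0020) and fell in Rad9a (-2.41, SE 0.276, adjusted p = 0.0474). Retained-intron transcripts held 42.1, 43.7 and 39.0% of Shcbp1 FPKM in cKO and 5.76, 4.13 and 4.75% in control. For Rad9a the shares were 9.26, 13.6 and 10.9% in cKO and 54.0, 43.1 and 39.7% in control. In both genes the libraries of the groups were far apart. The Rad9a call was lost with any 1 library left out (limma adjusted p 0.0655 to 0.202).

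Just beyond the threshold, each at a limma adjusted p of 0.0555, stood Dnajc2 (log2 ratio change 1.63), Hspa8 (-1.68) and Donson (-2.54), a gene of DNA replication named after its value was seen. Donson retained-intron transcripts held 3.50, 4.41 and 9.67% of its FPKM in cKO and 31.4, 50.03 and 36.6% in control. The Arhgef25 ratio changed by 0.97 on the log2 scale, which did not pass (limma adjusted p = 0.456). For the cartilage genes the ratio did not pass, with log2 changes of -0.26 for Col27a1, -0.41 for Col9a3, 0.08 for Mgp and -0.34 for Matn4 (limma adjusted p 0.543 to 0.932). The signs for Col27a1 and Mgp changed with another pseudocount, and that for Mgp also without cKO 2.

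**Figure D3:**
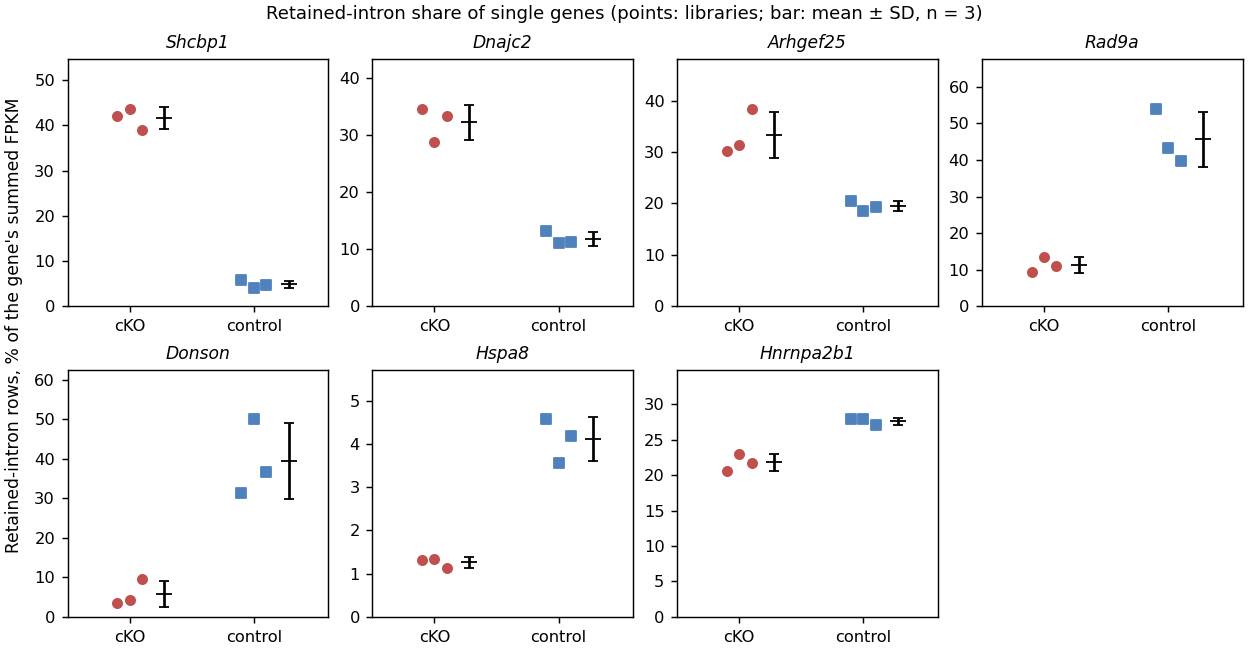
Percent of a gene's FPKM in retained-intron transcripts for 7 genes, with a point for each library and the mean ± SD (n = 3) beside them, on an axis that starts at 0 and differs between genes. In all 7 genes the cKO and control libraries do not overlap, and for Shcbp1 they lie at 39.0 to 43.7% and 4.13 to 5.76%.

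Away from these few genes, small changes pointed mostly downward among transcripts of low level. The median log2 change of the 4387 retained-intron transcripts was -0.089, and 39.6% were above 0, against medians of 0.033 for all 27761 transcripts, 0.063 for protein-coding ones and 0.096 for the coding transcripts of the same genes. The median of the 1149 transcripts typed as targets of nonsense-mediated decay, another class of nonproductive RNA, was 0.068. A downward lean was not particular to retained-intron transcripts. The 1375 typed processed transcript had a median of -0.048 with 44.1% above 0. The 275 typed lincRNA, a noncoding class, had -0.074 with 41.1% above 0, while 1098 processed pseudogenes had 0.049. The retained-intron median was -0.046 without cKO 3, -0.044 at a filter of 2 FPKM, where 55.0% were lower, and -0.012 without a filter. By level it was -0.093 from 0.5 to 1 FPKM, -0.115 from 1 to 2 FPKM, -0.057 from 2 to 5 FPKM, 0.012 from 5 to 10 FPKM, where 48.2% of 228 transcripts were lower, and -0.021 at 10 FPKM or more. Per gene, the log2 ratio had a median of -0.185, and 2376 of 3304 genes (71.9%) had a lower ratio in cKO, with quartiles of -0.40 and 0.03. The groups did not overlap for 639 genes (19.3%), 547 with a lower ratio (16.6%) and 92 with a higher one (2.78%). The retained sum was lower and the coding sum higher in 1369 genes, and the reverse held in 304. Across genes, which are not independent replicates and share libraries, the changes of both sums correlated weakly (Pearson r = 0.161, Spearman rho = 0.152).

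**Figure D4:**
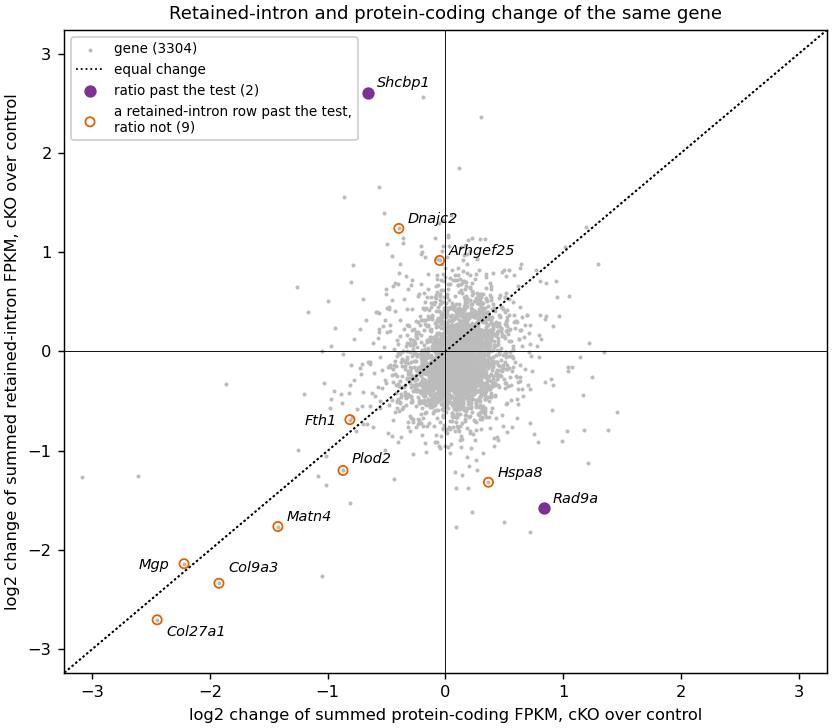
Log2 change, cKO over control, of a gene's summed retained-intron FPKM (y axis) against that of its summed protein-coding FPKM (x axis) for 3304 genes, with the dotted line where both are equal. Filled points mark 2 of the 3 genes whose ratio passed limma, and open points the 9 other genes with a retained-intron transcript past it, of which the cartilage genes lie near the line.

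The downward lean grew with the intronic part of a transcript. Among tested transcripts with under 10% of their bases outside exons of coding transcripts, the median log2 change was 0.035 and 46.6% were lower in cKO. The medians were -0.017 from 10 to 25%, a value below 0 in 14 of 17 settings and up to 0.070 in the others, -0.064 from 25 to 50%, -0.112 from 50 to 75% and -0.159 at 75% or more, where 73.2% were lower. Without cKO 3 the last of these was -0.095 and the first 0.072, and in each of the 16 alternatives the last was below the first. The settings without a filter, without a trend and with the replicate block could not differ here. Over these same transcripts they give the medians of the main fit. Introns of tested transcripts with a lower level had a median of 348 bases and 49.4% G or C, and those of transcripts with a higher level 241 bases and 52.8%. Transcripts that hold a whole intron had a median of -0.041, those that hold part of one -0.127, and 46 tested transcripts with a small RNA gene inside a whole intron -0.004. These are descriptions over transcripts that share genes and libraries, and no test was run on them.

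**Figure D5:**
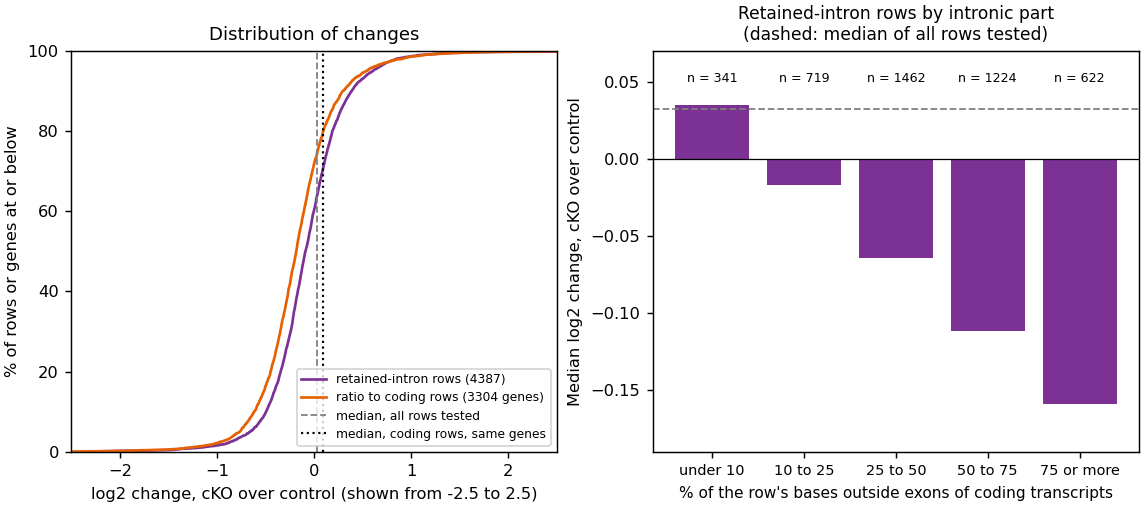
Left, cumulative percent of the 4387 tested retained-intron transcripts and of the 3304 gene ratios by log2 change, cKO over control, with vertical lines at the medians of all transcripts tested (0.033) and of coding transcripts of the same genes (0.096). Right, the median log2 change of retained-intron transcripts by the percent of their bases outside coding exons, which goes from 0.035 under 10% to -0.159 at 75% or more.

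Genes of the splicing machinery, which are known for regulated introns, had 0 retained-intron transcripts past limma, and most of these transcripts were slightly lower. Of 69 tested retained-intron transcripts of SR and SR-related splicing factors, 56 were negative with a median of -0.19 (7 at an unadjusted p under 0.05), while 85 coding transcripts of the list had a median of 0.01, with 1 past limma, lower in cKO. The ratio of retained-intron to coding FPKM was lower in 24 of 26 of these genes. For hnRNPs and related RNA-binding proteins, 51 of 64 were negative (median -0.28, 15 at an unadjusted p under 0.05, coding median 0.05), and for core spliceosome components 28 of 38 (median -0.13, 3 at an unadjusted p under 0.05). These stand against 2650 of 4387 negative, a median of -0.089 and 342 of 4387 at an unadjusted p under 0.05 over all retained-intron transcripts. Of those 4387, 14 passed limma (0.319%), so 0 in lists of this size says little. The 16 transcripts of SR protein kinases had a median of -0.22, the 7 of nonsense-mediated decay factors 0.07 and the 19 of RNA retention, export and surveillance factors -0.09, with 2, 0 and 2 at an unadjusted p under 0.05. Srpk1, a kinase of SR proteins, had ENSMUST00000233440 at 16.2, 18.7 and 15.7 FPKM in cKO and 10.2, 15.1 and 6.14 FPKM in control (log2 change 0.74, limma adjusted p = 0.351).

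The transcripts with the smallest p of each list, which lie at its far end and not near its median, show how individual libraries stood. Hnrnpa2b1, an RNA-binding protein of pre-mRNA, had ENSMUST00000204885 at 47.9, 52.7 and 55.4 FPKM in cKO and 71.6, 72.5 and 68.3 FPKM in control (log2 change -0.44, SE 0.072, limma adjusted p = 0.0719). Srsf11, an SR-related factor, had ENSMUST00000089922 at 11.4, 12.1 and 9.77 FPKM in cKO and 18.5, 16.0 and 15.6 FPKM in control (log2 change -0.57, limma adjusted p = 0.109). Luc7l2, a factor of the U1 particle, had ENSMUST00000162530 at 8.83, 8.71 and 7.42 FPKM in cKO and 12.8, 13.0 and 11.1 FPKM in control (log2 change -0.54, limma adjusted p = 0.115). In all 3, picked in this way, the groups were separate and none passed.

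Genes with well described regulated introns, such as the CLK kinases that phosphorylate SR proteins, leaned the same way: 42 of 50 transcripts were negative, with a median of -0.22, 0 past limma and 7 at an unadjusted p under 0.05. Over 18 of these genes the median share in retained-intron transcripts was 34.9% in cKO and 42.0% in control. The median share did not go the same way in every list: it was 11.8% in cKO and 11.1% in control for the hnRNP list, and 3.41% in cKO and 2.904% in control for cytosolic ribosomal proteins. Within genes, the median log2 ratio was below 0 in all 13 lists. It was -0.31 for the hnRNP list, with 19 of 22 genes lower, and -0.17 for ribosomal proteins, with 42 of 61 lower. Among all genes tested, 2376 of 3304 were lower. Clk4 ENSMUST00000148467 was at 3.78, 4.39 and 3.96 FPKM in cKO and 5.13, 5.62 and 5.22 FPKM in control (log2 change -0.36, limma adjusted p = 0.225). Ccnl1, a cyclin linked to splicing, had ENSMUST00000132998 at 3.09, 3.18 and 3.69 FPKM in cKO and 5.50, 5.77 and 4.80 FPKM in control (log2 change -0.62, limma adjusted p = 0.117). Rsrp1 ENSMUST00000148900, of an arginine- and serine-rich protein, was at 30.8, 33.04 and 33.96 FPKM in cKO and 38.0, 41.1 and 40.8 FPKM in control (log2 change -0.29, limma adjusted p = 0.149). Groups did not overlap in these 3 either.

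Shares of 3 genes, named after their values were seen, show the range. Hnrnpa2b1 had 21.8 ± 1.202% in cKO and 27.6 ± 0.513% in control (SD, n = 3 each), while Arglu1, a splicing cofactor, had 83.4 ± 0.788% in cKO and 85.2 ± 0.960% in control. Clk1 had 35.1 ± 9.32% in cKO and 46.2 ± 16.1% in control, with overlapping groups. The ratios of these 3 genes did not pass (limma adjusted p 0.485 to 0.714).

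Of the 13 gene lists, the chondrocyte list alone held retained-intron transcripts past limma. Over all, 14 of 4387 retained-intron (0.319%) and 137 of 18691 coding transcripts (0.733%) passed. A count of 0 in a short list thus says little about that list. Of 15 tested retained-intron transcripts of chondrocyte matrix and fate genes, 5 fell (those of Col27a1, Col9a3 and Matn4 above), 0 rose, and all 15 were negative with a median of -1.28. Among the 5, those of Col27a1 and Col9a3 ENSMUST00000165224 averaged under 0.5 FPKM in cKO, so they entered the test through control. So did, among the 15, Col27a1 ENSMUST00000148751 and Col9a3 ENSMUST00000141056. The 55 coding transcripts of that list had a median of -1.35 with 20 lower and 0 higher, and the list's median log2 ratio was -0.11 over 8 genes, near that of all genes. Hedgehog and primary cilium genes had 8 tested retained-intron transcripts, with a median of -0.11, 0 past limma and 1 at an unadjusted p under 0.05. One of them, Ift20 ENSMUST00000137120, of an intraflagellar transport protein, was at 0.951, 0.944 and 1.32 FPKM in cKO and 1.69, 3.29 and 2.75 FPKM in control (log2 change -0.94, limma adjusted p = 0.184). Hippo pathway and YAP target genes had 15 (median -0.04, 1 at an unadjusted p under 0.05), among them Amotl2, an angiomotin that binds YAP, whose ENSMUST00000138224 was at 35.5, 46.3 and 19.6 FPKM in cKO and 25.3, 14.0 and 15.1 FPKM in control, with overlapping groups.

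Cell cycle genes had 26 (median 0.02, 2 at an unadjusted p under 0.05), among them Cdk4, a kinase of G1 phase, whose ENSMUST00000140254 was at 93.8, 95.1 and 99.5 FPKM in cKO and 20.5, 78.0 and 45.3 FPKM in control (log2 change 1.19, limma adjusted p = 0.318). The cKO values were close together and the control values wide apart. The 143 transcripts of cytosolic ribosomal proteins had a median of -0.02 (8 at an unadjusted p under 0.05) and the 32 of actin and adhesion genes 0.03 (0 at an unadjusted p under 0.05), with 0 past limma in each. Among the ribosomal ones, Rps21 ENSMUST00000148629 was at 9.62, 5.93 and 8.97 FPKM in cKO and 32.5, 50.03 and 24.4 FPKM in control (log2 change -2.02, limma adjusted p = 0.0621), while coding Rps21 had a log2 change of 0.09.

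The spread between libraries followed the level differently in retained-intron and coding transcripts. From 10 to 50 FPKM the median SD of log2 values within a group was 0.317 for 130 retained-intron transcripts and 0.129 for 4322 coding ones. From 0.5 to 1 FPKM it was 0.292 for 2111 retained-intron and 0.437 for 2940 coding transcripts, and at 50 FPKM or more 0.632 for 22 retained-intron and 0.107 for 1035 coding ones. Correlations across tested retained-intron transcripts were 0.852 to 0.859 between cKO libraries, 0.816 to 0.836 between control libraries and 0.809 to 0.845 between groups.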

How the data were processed

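RNA sequencing covered 6 libraries of mouse chondrocytes, 3 cKO and 3 control, grouped and numbered by the sample titles. Per the labels' protocols, 1.5 µg of total RNA extracted with Trizol was fragmented, reverse transcribed and given dUTP, and whether poly(A) RNA was selected is not given. The submitters' processing notes name build mm10. For these samples the aligner, the estimator of transcript levels and the authors' test were not given in the sources used here. Deposited FPKM values were computed by the authors for each transcript and library. The authors' fold divides mean cKO by mean control FPKM, which recomputation matched within 1% for all 71165 transcripts whose means both exceed 0. Their deposited log2 column is its logarithm. The deposited p-value and q-value come from the authors' unnamed test. Counts were not used: 17.0 to 19.5% of low FPKM values lay within 2% of a whole multiple of the best step, so reads could not be recovered from them and depth is unknown.

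Transcripts with a mean of at least 0.5 FPKM were tested on log2(FPKM + 0.5), a scale that understates changes of low values, with limma 3.58.1 (R 4.3.3, mean-variance trend, 2-sided, no covariate) and Benjamini-Hochberg adjustment over all 27761 transcripts. The ratio of summed retained-intron to summed protein-coding FPKM per gene was tested in the same way over 3304 genes. Library shares were compared by exact permutation. The fits were also run on simulated data with known changes. The simulated noise was independent between transcripts, so reads shared by overlapping transcripts were not modelled. Errors are SD over 3 libraries, or SE of the fit for log2 changes. Python 3.11.15, pandas 2.3.3, NumPy 2.4.6, SciPy 1.17.1 and Matplotlib 3.10.9 were used. Of the 19376 retained-intron transcripts, 19312 are in GENCODE M21 and 19298 have the same coordinates. Coordinates are 1-based on mm10.

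Transcripts and genes were named by rule: up to 8 rises and 8 falls past the test with separate groups and 1 FPKM in a group, up to 5 ratios in each direction, the 6 highest transcripts, and up to 3 of the smallest p from each of 13 gene lists. Some genes that the rule names are not reported here. Members, lists and tests were chosen with earlier results of these data known. Alternatives were other pseudocounts, filters, scalings, covariates, denominators and weights, the replicate number as a block, and each library left out. The shared replicate numbers were not taken to mark pairs, as the labels state none and no same-numbered pair correlated over 0.1. With 3 libraries in a group this cannot exclude pairing.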

Additional observations from a re-analysis of the deposited data

How the results depend on the processing

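No alternative turned the sign of a value past the test. Of the ratios that did not pass, that of Mgp (0.08) was -0.077 with a pseudocount of 0.1 and -0.16 to 0.34 with 1 library left out, below 0 without cKO 2, and that of Col27a1 (-0.26) was 0.12 with a pseudocount of 1. The main counts were 4 retained-intron transcripts higher and 10 lower in cKO, and 2 genes with a higher and 1 with a lower ratio. For transcripts they were 2 higher and 1 lower without a filter on low values, 2 and 0 with Xist as a covariate, and 81 and 149 by the authors' q in the deposited table. Leaving out 1 library gave 2 to 3 higher and 0 to 2 lower. For the ratio they were 5 higher and 3 lower with a pseudocount of 1, 41 and 17 without a filter, 3 lower with all other transcripts as denominator, 2 lower at a filter of 2 FPKM, with quantile normalization or without a trend, 1 higher and 0 lower on the share in percent, and 1 to 3 higher and 0 to 1 lower with 1 library left out. With the replicate block, which assumes pairs that the labels do not state, all 4 counts were 0, and the paired exact p of both library shares was 0.25, the smallest 3 pairs allow. Deviations of same-numbered libraries from their group means correlated at -0.0023, -0.0074 and -0.0299. Of the 14 transcripts past the test, that of Shcbp1 lost its call only under that block (limma adjusted p = 0.142), and 12 lost theirs in 8 to 11 of up to 16 alternatives, mostly with a library left out, no filter, the Xist covariate or the block. The median log2 change of retained-intron transcripts was -0.012 without a filter, and that of the ratio was -0.094 without a filter and -0.105 with quantile normalization, while all 19 fits of the ratio had a median below 0. Among the 19, the fits without a trend and with the replicate block leave the main median unchanged by construction. The cause of the differences between settings was not tested. Depth is unknown, so counting error could not be given. Transcripts of a gene overlap, and how reads they share were divided among them is not given, so a retained-intron level depends on that division.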

Other observations

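Some genes gave more of their FPKM to retained-intron transcripts than to all others. Of 7050 genes with both types and a mean of at least 0.5 FPKM, 58 had over 50% in retained-intron transcripts in every library, and 764 (10.8%) had under 1% in every library. The share was over 50% in all cKO libraries and in no control library for Setd4 and H2-Eb1, and the reverse held for Nfkbie, Ldhd and Pak1ip1, all named after their values were seen. H2-Eb1 and Ldhd were too low to enter the ratio test. Coding H2-Eb1 was at 0, 0 and 0.018 FPKM in cKO, and coding Ldhd at 0.020, 0.071 and 0 FPKM in control. In Pak1ip1, which acts in ribosome assembly, retained-intron transcripts held 31.9, 46.9 and 37.0% of FPKM in cKO and 54.4, 50.6 and 50.5% in control. Setd4, a SET-domain methyltransferase gene, had 71.9, 51.4 and 65.1% in cKO and 30.1, 39.98 and 47.3% in control, at low sums of retained-intron FPKM of 1.21, 0.868 and 0.838 in cKO and 0.302, 0.975 and 0.591 in control. The ratios of Pak1ip1 and Setd4 did not pass limma (adjusted p = 0.464 for each).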
